A study of Mus musculus with 2 samples.

Results

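The 584 distal Foxp4 sites described here are intergenic ChIP-seq peaks that lie more than 50 kb from the nearest annotated start site and carry no repeat annotation. They are 17.6% of the 3317 peaks of the series (exact 95% binomial interval 16.3 to 18.9). Of 1674 intergenic peaks, 792 lay beyond 50 kb, and 208 of these were left out because the file names a repeat at the peak. Class, distance and repeat therefore define the members and are not findings, whereas the score took no part in the choice. Spacing and flanking genes were not selected themselves. The distance limit still favours genes beside long gaps, so counts of flanking genes are not free of the rule.

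Foxp4 is a forkhead transcription factor of the Foxp family, whose members bind DNA as dimers and are known mainly as repressors. Much of the DNA that controls developmental genes lies in long gene-poor stretches and can act on a promoter far away, often past other genes. The nearest gene is for that reason only one candidate partner of a distal site, and both flanking genes are given below.

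Stromal vascular cells, which hold adipocyte progenitors and exclude mature adipocytes, came from the inguinal white fat of C57BL/6 mice. The growth phase lasted 3 days at 20% serum. Differentiation followed for 48 h at 10% serum with 5 µM troglitazone, 50 nM T3, 1 µM dexamethasone, 0.5 mM isobutylmethylxanthine (IBMX) and 5 µg/ml insulin. The input DNA library had the same culture and treatment. The values come from 1 Foxp4 ChIP library, so nothing below has a replicate error or a test between groups, and intervals cover counting error over peaks only. The read depth is unknown, and the 1 input library was not analysed here.

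Few of these sites lay on a start site of a more recent annotation, whose set of start sites was incomplete. It held start sites for 17492 of 21887 protein-coding genes and for the chromosomes of 569 of the 584 members. In the RefSeq start sites of GRCm38.p6, 6 of the 584 peaks overlapped the window from 250 bases before to 50 bases after a start, 9 windows in all, each of a long non-coding RNA gene. These windows are the stretches of distal sites for which sequence was at hand, and 5 of them are shown, each from another site, with the highest-scoring site first. Letters run 5′ to 3′ on the strand of the gene, and capitals mark matches on either strand to a forkhead motif (TGTTTAC or TGTTTAT, as well as TGTTTGC or TGTTTGT), an AP-1 motif (TGANTCA) or a C/EBP motif (TTGCNNAA).
Gm32287, chr2:167777365-167777664, minus strand: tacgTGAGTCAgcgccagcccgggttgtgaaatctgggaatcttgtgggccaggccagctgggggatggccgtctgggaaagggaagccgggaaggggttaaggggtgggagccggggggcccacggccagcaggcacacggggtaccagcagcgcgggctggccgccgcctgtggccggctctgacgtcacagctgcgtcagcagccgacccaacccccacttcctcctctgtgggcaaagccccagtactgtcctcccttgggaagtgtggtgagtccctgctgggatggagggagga
Gm34434, chr3:144381099-144381398, minus strand: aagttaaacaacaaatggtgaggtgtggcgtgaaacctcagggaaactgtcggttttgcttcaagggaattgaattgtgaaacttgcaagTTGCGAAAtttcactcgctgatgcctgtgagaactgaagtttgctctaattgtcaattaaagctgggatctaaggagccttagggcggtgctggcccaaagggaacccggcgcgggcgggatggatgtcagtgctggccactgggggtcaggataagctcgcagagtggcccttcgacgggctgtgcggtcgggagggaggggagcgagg
Gm40513, chr9:41890500-41890799, minus strand: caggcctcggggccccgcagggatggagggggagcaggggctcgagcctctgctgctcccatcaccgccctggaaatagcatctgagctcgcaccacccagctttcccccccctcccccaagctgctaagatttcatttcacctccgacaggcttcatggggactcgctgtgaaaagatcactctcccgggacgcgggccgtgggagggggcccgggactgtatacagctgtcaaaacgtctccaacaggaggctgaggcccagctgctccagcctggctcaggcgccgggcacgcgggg
Gm13470, chr2:46442856-46443155, minus strand: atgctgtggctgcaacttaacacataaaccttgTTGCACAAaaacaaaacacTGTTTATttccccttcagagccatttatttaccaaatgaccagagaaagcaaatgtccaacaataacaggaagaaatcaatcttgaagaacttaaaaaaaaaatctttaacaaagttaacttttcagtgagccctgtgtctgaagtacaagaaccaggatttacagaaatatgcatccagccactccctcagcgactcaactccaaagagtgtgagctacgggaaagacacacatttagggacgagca
Gm39473, chr12:74825050-74825349, plus strand: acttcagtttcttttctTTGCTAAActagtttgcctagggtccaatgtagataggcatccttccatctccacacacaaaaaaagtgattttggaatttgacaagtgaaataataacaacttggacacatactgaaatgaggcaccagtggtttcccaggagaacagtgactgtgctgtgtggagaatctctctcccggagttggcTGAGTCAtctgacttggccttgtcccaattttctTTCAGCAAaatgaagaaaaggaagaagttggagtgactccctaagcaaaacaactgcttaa
The window shown for Gm32287 lay wholly inside a peak of score 99 and holds 1 AP-1 match, TGAGTCA. Another window of Gm32287 overlaps the same peak and holds no match. That peak sits in the gap between Cebpb, which encodes an early adipogenic C/EBP factor, and Ptpn1, a phosphatase that acts on the insulin receptor. It lay 87.2 kb from the Cebpb gene body and 153 kb from Ptpn1. It also covered the start site of Gm14321 on the other strand. The window of Gm34434 shared 238 bases with a peak of score 84, 176 kb upstream of the LIM-domain gene Lmo4, and holds 1 C/EBP match. Gm40513 and Gm36170 on the other strand both started inside the widest peak of the whole list, of 2267 bp and score 58, and neither window has a match to the 3 motifs. The site not shown is a peak of score 73 that covers the window of Gm30604, which has no match either.

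Gm13470 shared 69 bases with a peak of score 43 in the Zeb2 gap described below. Its window holds the only forkhead match of the 9 windows (TGTTTAT), outside the bases that the peak covers, and a C/EBP match (TTGCACAA). The window of Gm39473, inside a peak of score 34, holds an AP-1 match and 2 C/EBP matches. No match of 1 motif overlapped a match of another in any of the windows. Of all 32851 windows of the same length in the table, 17.7% hold a forkhead match, 7.81% an AP-1 match and 10.8% a C/EBP match. Against these shares stand 1, 2 and 3 of the 9 windows. The windows at Gm32287 and Gm14321 share bases, so the 9 are not separate sites. A match is a description of letters and does not show binding.

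The distal sites had scores and widths close to those of other sites. The score is the authors' whole-number value for each peak, on a scale that the sources do not state. Among the 584 it ranged from 15 to 1350 with a median of 60 (quartiles 38 to 95, exact interval of the median 57 to 65). The 610 repeat-free intergenic peaks within 50 kb had a median of 66 (62 to 70), and all 2733 other peaks one of 66 (63 to 68). The difference of -6 between the distal and the nearer intergenic peaks was not tested, and the intervals of the 2 medians overlap. A score of at least 100 was reached by 134 of the 584 (22.9%, 19.6 to 26.6) and by 155 of the 610 (25.4%, 22.0 to 29.1). The 208 distal peaks on repeats had a median of 68 (60 to 75), and the 278 promoter peaks one of 55 (50 to 64). The median width was 398 bp for the distal sites (389 to 410) and 401 bp for the nearer ones (388 to 410).

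Score did not fall with distance up to 500 kb. The 211 peaks at 50 to 100 kb had a median of 60 (55 to 71), the 185 at 100 to 200 kb one of 61 (51 to 67) and the 156 at 200 to 500 kb one of 60.5 (55 to 69). The 32 peaks beyond 500 kb had a median of 50.5, with a wide interval of 32 to 102. Just outside the limit lay peaks of score 92 at -49966 bp from Mir5098 (upstream) and of 94 at -49928 bp from 1700003P14Rik. Just inside it lay peaks of score 192 at -50151 bp from Atf7ip and of 16 at 50221 bp from 1700016G22Rik (downstream).

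**Figure D1:**
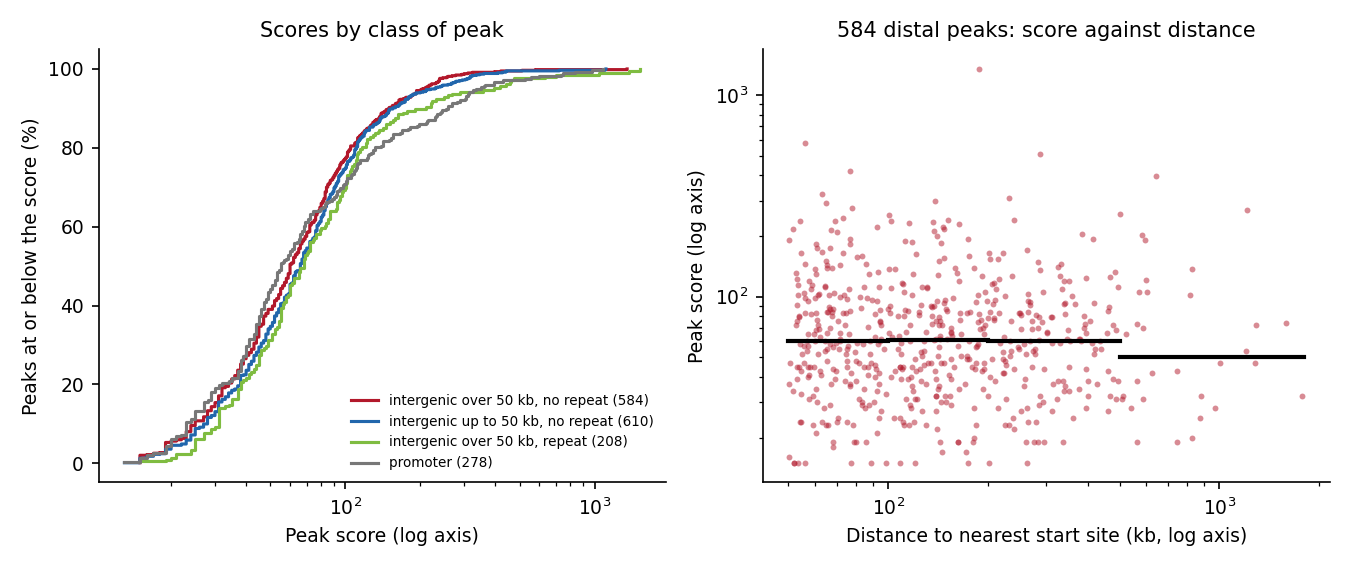
The left panel shows the share of peaks (percent) at or below each score (log axis) for 4 classes of peak, and the right panel the score of each of the 584 distal peaks (points, log axis) against its distance to the nearest start site (kb, log axis), with black lines at the median of each distance bin. The curves run close together below a score of 100, and the medians are 60, 61, 60.5 and 50.5 from the nearest to the farthest bin.

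The median distance to a start site was 137 kb (quartiles 76.8 to 240), and upstream and downstream positions were almost equal in number, with 298 peaks upstream (51.0%, 46.9 to 55.2) and 286 downstream. Beyond 1000 kb lay 7 peaks. The farthest was 1769 kb downstream of the start of Lrrc4c, a synaptic adhesion gene (score 32). The next were at -1589 kb from Adgrl3, a latrophilin adhesion receptor gene (74), 1292 kb downstream of the start of Efna5, an ephrin gene (72), and 1283 kb from 4932441J04Rik, in the gap between Stim2 and the protocadherin gene Pcdh7 (47). The fifth lay 1213 kb from the start of Pla2g4a, which encodes a phospholipase A2, and had a score of 268. In the more recent start sites the Pla2g4a peak was 2.95 kb from a start, the Efna5 peak 112 kb and the Lrrc4c peak 527 kb. The Adgrl3 peak was still 1498 kb and the 4932441J04Rik peak 1283 kb away, so the remoteness of 3 of the 5 depended on the annotation.

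How gene-poor the sites are also depended on the annotation. Of 569 members on chromosomes with start sites in the promoter table, 219 lay within 50 kb of some start site of it and 36 within 3 kb, and 350 (61.5%, 57.4 to 65.5) stayed beyond 50 kb. When only genes with a curated RefSeq transcript were used, 548 (96.3%, 94.4 to 97.7) stayed beyond. Part of the coding genes have no start site in the promoter table, so both counts of members beyond 50 kb can be too high. The median score was 59 for the 350 and 64 for the 219. Inside a gene body of the RefSeq table lay 110 of the 584 (18.8%, 15.7 to 22.2), of which 93 lay in long non-coding RNA genes and 17 in protein-coding genes. The latter included a peak of score 94 inside Ppargc1a, the coactivator gene of mitochondrial and thermogenic programmes, in its span as the table gives it. They also included peaks in Arhgap24 (94 and 20), Arid5b (67) and Sox5 (47), and a peak of score 323 in the table's span of Cd200r3, at -63.1 kb from the start of Ccdc80, which encodes a secreted matrix protein. For these 17 the label "intergenic" holds for the file's annotation and not for the later one.

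The sites lay in long gaps between protein-coding genes. The 567 members outside coding gene bodies sat in gaps with a median length of 549 kb (quartiles 259 to 1068), and the 19697 gaps of the genome had a median of 17.3 kb. Because the rule asks for 50 kb to a start site, long gaps follow from it. Of the 567, 469 members were more than 50 kb from both flanking gene bodies, and 98 lay closer to a flank. The end of that flank faced the gap for 69 of the 98 and its start for 5, and for 24 the strand was not in the table. The rule bars members within 50 kb of a start, so this split follows largely from it and is not a finding. Those 469 sat in gaps with a median of 661 kb. The sequence more than 50 kb from both flanks had a median gap of 997 kb when each gap was weighted by that sequence. It includes repeats and stretches near non-coding start sites, where the rule allows no member. The 997 kb is therefore not the value for sites placed evenly under the rule. For 377 of the 567 members the file gives a flanking coding gene, matched by its name, as the nearest gene. Some genes have another name among the flanks than in the file, such as Septin5, which the file calls 5-Sep. The 377 can therefore be too low. The nearest gene was protein-coding for 406 of the 584 members (69.5%, 65.6 to 73.2), non-coding for 169 and a pseudogene for 9.

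Density along the gaps was measured on sequence more than 50 kb from both flanking coding genes, 1006 Mb in all, which held 469 members or 0.466 per Mb (exact Poisson interval 0.425 to 0.510). It was 0.718 per Mb in gaps of 200 to 500 kb (0.607 to 0.843) and 0.312 in gaps over 1000 kb (0.265 to 0.365). Gaps of 100 to 200 kb had 0.615 (0.421 to 0.869) and gaps of 500 to 1000 kb 0.538 (0.450 to 0.637). By this measure the longest gaps were the most sparsely occupied. Their members had a median score of 59.5, against 64.5 in gaps of 200 to 500 kb. These densities include chromosomes X and Y. They also count repeats and stretches near non-coding start sites, where the rule allows no member. Densities by gap length on the autosomes alone, or on sequence open to members, were not computed.

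Orientation of the flanking genes was known for part of the gaps. Where the starts of both flanks faced the gap, the density was 0.608 per Mb (0.495 to 0.740), with 1 start and 1 end 0.524 (0.450 to 0.607), and with 2 ends 0.363 (0.271 to 0.477). The order was clearest in gaps of 200 to 500 kb, with 39 members or 1.10 per Mb (0.779 to 1.5) between 2 starts, 0.793 (0.605 to 1.02) with 1 start, and 6 members or 0.252 (0.0925 to 0.549) between 2 ends. In gaps of 500 to 1000 kb the same order held with 0.706, 0.629 and 0.397 and overlapping intervals. In gaps over 1000 kb the 3 values were 0.360, 0.344 and 0.332 per Mb, with overlapping intervals. In gaps of 100 to 200 kb, where 6 members lay between 2 ends, the value was highest there (0.885, 0.325 to 1.93). For 1007 of the 2967 gaps the strand of a flank was not in the table, and these held 0.386 per Mb (0.325 to 0.457). The differences were not tested.

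**Figure D2:**
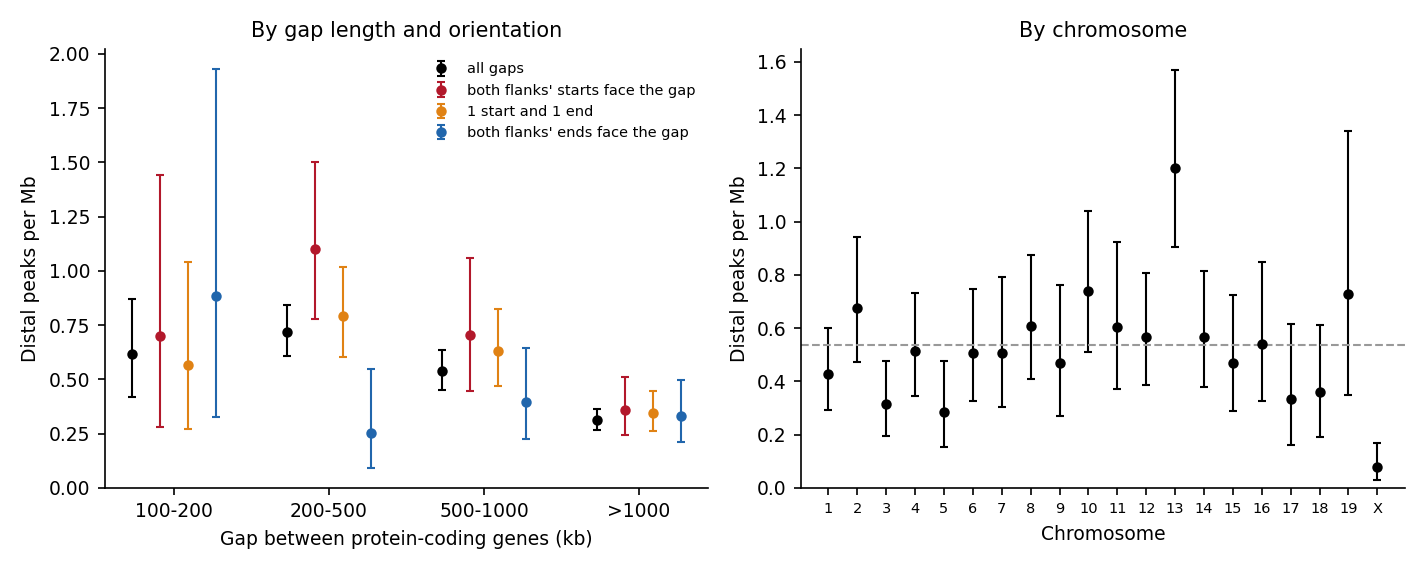
Distal peaks per Mb of sequence more than 50 kb from both flanking coding genes (points, with exact 95% Poisson intervals as bars), by gap length and by which ends of the flanking genes face the gap (left) and by chromosome (right, dashed line at the 0.537 of the autosomes). In gaps of 200 to 500 kb the value is 1.10 between 2 starts and 0.252 between 2 ends, and chromosome 13 stands highest with 1.20.

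Chromosome 13 carried more members than any other chromosome, 63 of 584 (10.8%, 8.39 to 13.6), and had the highest density, 1.20 per Mb (0.904 to 1.57) against 0.537 (0.489 to 0.588) on the autosomes together. The next were chromosome 10 with 0.741 (0.510 to 1.04) and chromosome 19 with 0.728 (0.349 to 1.34). Chromosome 5, with 0.284 (0.155 to 0.477), was the lowest autosome. Chromosome X had 8 members, and 6 of them gave 0.0770 per Mb (0.0283 to 0.168). On chromosome 13 lie the gaps at Pik3r1, Gas1, Id4 and Irx1 that are described below.

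The sites with the highest scores lay beside genes of varied function. The highest, with 1350, was 188 kb upstream of Tapt1, a gene of ciliary and skeletal development, and 21.0 kb from the body of Ldb2, which encodes a LIM-domain-binding cofactor (chromosome 5, 44414432 to 44415395). It ranked 5 among all 3317 peaks. The second, with 579, lay in a short gap of 32.2 kb between Ankdd1a and Plekho2 (chromosome 9, 65523709 to 65524258), close to gene bodies though 56.1 kb from a start. The third, with 511, lay 287 kb upstream of Adamts5, an aggrecan-cleaving protease gene (chromosome 16, 86187914 to 86188478). The fourth, with 420, lay between Jcad, a gene of endothelial cell junctions, and Svil. The fifth, with 397, was at -644 kb from Igfbp3, which encodes the main carrier of insulin-like growth factors in blood (chromosome 11, 7857604 to 7858134).

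The next 5 had scores between 277 and 323 and lay upstream of their nearest genes. They were found at Ccdc80 (323), at Xkr4 (310, -232 kb), at the muscarinic receptor gene Chrm3 (300, -138 kb), at the ceramide synthase gene Cers6 (293, -65.1 kb) and at Errfi1 (277, -77.6 kb). Errfi1 encodes a feedback inhibitor of the EGF receptor and is induced by glucocorticoids. A second member lay 8.73 kb from the last, with a score of 237 at -68.9 kb. Cers6 also had a non-member peak of score 431 among 2 other peaks, so its distal site was not its strongest.

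Members were spread thinly, with some in short runs. The closest other member lay at a median of 422 kb (quartiles 72.8 to 1703), and the closest peak of any class at 123 kb. Another member lay within 50 kb for 125 of the 584 (21.4%, 18.1 to 25). Counting peaks of any class, 30.1% (26.4 to 34.0) had a neighbour within 50 kb, against 36.1% of the nearer intergenic peaks and 33.2% (31.4 to 35.0) of all other peaks. The closest members were 0.690 kb apart. The 125 members formed 59 runs, 52 of 2 peaks and 7 of 3, and none was longer. Their median score was 55, and that of the 459 members outside runs 62.

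The run with the highest summed score lay upstream of Adamts5 (46, 55 and 511 over 60.4 kb). Others lay upstream of Wdfy3, an autophagy adaptor gene (211, 20 and 94 over 46.8 kb, the last 2 inside the table's span of Arhgap24), and in the gap beside the chemokine gene Cxcl12 (188, 43 and 33 over 46.1 kb). A run upstream of Ampd3, an AMP deaminase gene, held scores of 23, 65 and 164 within 11.5 kb, next to Adm, which encodes the vasodilator peptide adrenomedullin. Another lay 463 to 492 kb from Id4, an inhibitor of helix-loop-helix factors, with 40, 44 and 86 over 28.6 kb.

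A few gaps collected many sites. Members fell into 393 gaps, of which 105 held at least 2, 35 at least 3 and 8 at least 5. Those 8 held 53 members (9.08%). The 451 nearest genes had mostly 1 member each (358 genes), and 21 had 3 or more. Gaps picked for their counts are described without a test.

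Pik3r1, which encodes the regulatory subunits of the PI3-kinase that acts below the insulin receptor, had 12 members in the gaps on its 2 sides, with scores of 19 to 109 (median 59). On the upstream side, the gap of 925 kb to Cd180 held 8. At distances of 112, 212, 283, 376, 427, 464, 680 and 825 kb from Pik3r1 the scores were 105, 109, 19, 62, 37, 27, 56 and 87. They spread over the whole gap, with the higher scores at both ends. On the other side, the gap of 847 kb to Slc30a5 held 4 members with scores of 53 to 90, of which the closest to Pik3r1 lay 56.2 kb from its body. Pik3r1 was also the nearest gene of intronic and intergenic peaks outside the group, with scores up to 52.

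The gap of 3697 kb between Zeb2, a zinc finger repressor gene of TGF-beta signalling and epithelial-mesenchymal transition, and the activin receptor gene Acvr2a also held 8. Of these, 6 lay on the Zeb2 side, at 323, 788, 933, 1165, 1324 and 1325 kb from Zeb2, with scores of 36, 117, 60, 31, 19 and 43. The remaining ones lay 816 and 80.0 kb upstream of Acvr2a, with 102 and 48. Between 1325 and 2881 kb from Zeb2 there was no member. For the first 6 the file names 1700019E08Rik, a non-coding gene, as nearest, so a list of nearest genes does not show Zeb2.

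The gap of 1083 kb between Plpp3, which encodes a lipid phosphatase that degrades lysophosphatidic acid, and Usp24 held 7 members. From Plpp3 outward, at 40.6, 409, 532, 665, 737, 862 and 954 kb, they scored 29, 133, 39, 93, 76, 222 and 43. The highest lay 221 kb from Usp24 (chromosome 4, 106093970 to 106095322). For 5 of the 7 the nearest gene in the file is the non-coding Gm12724.

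Marcks, a gene for a membrane-bound protein kinase C substrate, had 8 members in the first 488 kb of its 1682 kb gap, with scores of 15 to 193, and none in the rest of it. Adamts5 had 7 in the first 440 kb of a gap of 1453 kb, with scores of 36 to 511 and a median of 55.

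The last 3 of the 8 gaps held 5 members each. Between Gas1, a hedgehog co-receptor gene, and Dapk1, a gene for a death-associated kinase, the gap of 424 kb held scores of 19, 66, 126, 15 and 112 at 114, 128, 232, 251 and 331 kb from Gas1. Beside Cxcl12, which encodes a chemokine made by adipose stromal cells, scores of 45, 119, 188, 43 and 33 lay at 98.0, 256, 426, 466 and 472 kb from the gene. The other flank of that gap of 659 kb is Zfp637, which was closer to the peak of 188 (233 kb). On the side of Cited2, a gene for a coactivator-binding protein, scores of 15, 96, 52, 42 and 31 lay at 201, 211, 368, 849 and 1134 kb from the gene, and the remaining part of that gap of 2952 kb, towards Nmbr, held none.

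**Figure D3:**
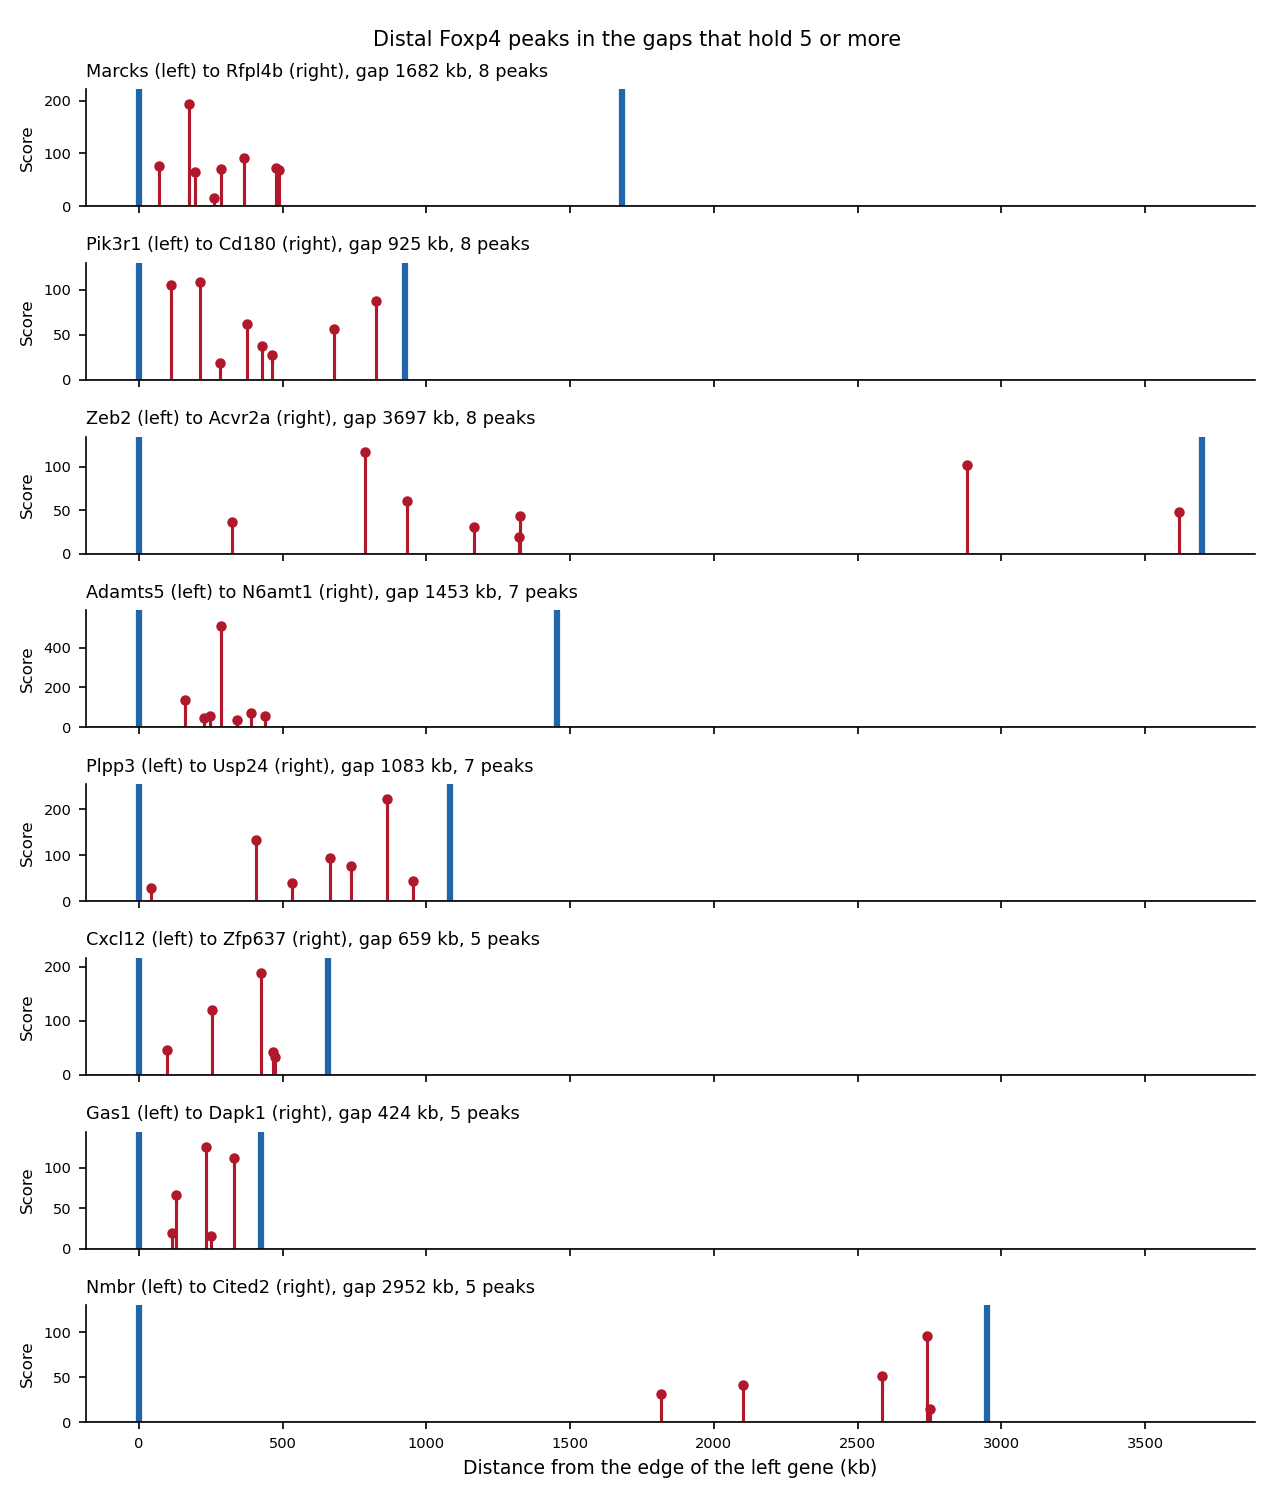
Score (vertical axis) of each distal peak in the 8 gaps that hold 5 or more, against its distance from the edge of the left gene (kb), with blue bars at the edges of the left and right coding genes. The peaks of the Marcks and Adamts5 gaps lie in the part next to these genes, those of Cited2 lie on its side, and those of the Pik3r1 and Plpp3 gaps are spread over the gap.

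MicroRNA genes were the nearest genes of 31 of the 584 members, at 19 such genes. The share over all peaks was not computed, so the count does not show that members favour microRNA genes. Mir148a, whose product is linked to adipogenesis, had 3, at 60.5, 102 and 233 kb from its start, with scores of 83, 238 and 60. In the more recent start sites the peaks of 238 and 83 lay 1.48 and 2.02 kb from some start. The mature products of Mir148a (RefSeq, GRCm38.p6, minus strand) are given with the seed (bases 2 to 8) in capitals to identify the gene.
mmu-miR-148a-3p, chr6:51269829-51269850: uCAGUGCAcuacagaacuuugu
mmu-miR-148a-5p, chr6:51269867-51269888: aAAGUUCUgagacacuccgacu

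Genes with a distal member often had other Foxp4 peaks. Of the 316 protein-coding genes nearest to a member, 125 (39.6%, 34.1 to 45.2) were also nearest to at least 1 peak outside the group. Among the 750 genes that bound a gap with a member the number was 218 (29.1%, 25.8 to 32.5). It was 559 of 4041 (13.8%, 12.8 to 14.9) among other genes beside a gap over 100 kb, and 8.23% among all 21887 protein-coding genes. The groups of genes were not matched for gap length, and the part of gap length in these shares was not tested.

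Gene lists were counted among the flanks. Of all protein-coding genes, 1.44% were nearest to a member and 3.43% bounded a gap with one. Long gaps can hold more members, so the density per Mb of the adjoining gaps is given beside each count, to be read against 0.466 for all gaps. Since density also varied with gap length, a second reference is given for each list, the density that all gaps have at the lengths of its gaps. Both references include chromosomes X and Y. The density was 0.537 on the autosomes and 0.0770 on X, so both can be too low for a list with few genes there. The same-length reference was not computed on the autosomes alone. Median scores beside the lists are those of the members counted in the density, and over all gaps that median was 60.

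Adipogenic regulators bounded an occupied gap for 14 of 39 genes (35.9%), and 4 were the nearest gene. Their adjoining gaps held 19 members, 1.45 per Mb (0.874 to 2.27) against 0.484 for all gaps of the same lengths, with a median score of 48. The highest lay 157 kb from Tle3, a corepressor gene that cooperates with PPARgamma (183), 67.8 kb upstream of the Krüppel-like factor gene Klf9 (139), 719 kb from the helix-loop-helix inhibitor gene Id2 (124), and at Cebpb (99). The Id2 peak was closer to the other flank, Rnf144a (492 kb). Klf4 had 3 members in its gap with scores of 45 to 79, of which those at -312 and -350 kb are nearest to it. Ebf1, a factor of early adipogenesis, bounded a gap with 2 members and a highest score of 58. No member had Pparg, Ebf2, Zbtb16, Foxp1, Foxp2, Foxp4 or Mir21a as nearest gene, and none had the coding genes among these as a flank. Mir21a is non-coding and could not be a flank. The long-gap sequence beside these genes was not measured, so the rule alone may leave them without members.

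Genes of the extracellular matrix and its enzymes bounded an occupied gap for 16 of 107 genes (15.0%), and 4 were nearest. The density was 1.67 per Mb (1.12 to 2.40) against 0.510 at the same lengths, from 29 members with a median score of 60. Adamts5 supplied 7 of them, and without its gap the value was 1.37. The other high scores lay 192 kb from Adamts18 (221), 405 kb from Adamts16 (200) and 154 kb from the fibronectin gene Fn1 (158), and Has2, a hyaluronan synthase gene, bounded a gap with 3 (44 to 78). The peak at Adamts16 is also the highest in the gap of Irx1, a homeobox gene 711 kb away. The peak at Adamts18 was closer to the other flank, Nudt7 (92.3 kb).

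Patterning transcription factors bounded an occupied gap for 34 of 117 genes (29.1%), and 10 were nearest. Their gaps held 52 members, 0.852 per Mb (0.637 to 1.12) against 0.460 at the same lengths, with a median score of 55.5, and 0.766 without the gap of Zeb2. High scores lay 411 kb from Gata6, an endoderm and heart factor gene (235), and 182 kb from Foxf1, a mesenchymal forkhead gene, towards Irf8 (230). The other flanks were closer, Rbbp8 at 137 kb and Irf8 at 146 kb. Of the 14 adipogenic flanking genes, 5 (Id2, Klf4, Klf5, Nfia and Sox9) are in this list too, so the 2 counts are not separate.

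Growth factors and their antagonists bounded an occupied gap for 16 of 84 genes (19.0%), and 8 were nearest, with 1.01 members per Mb (0.617 to 1.56) against 0.555 at the same lengths and a median score of 54.5. The highest lay 62.2 kb from the body of Sfrp1, a secreted Wnt antagonist gene (255), 209 kb from Tgfb2 (185), and 66.8 kb from Inhbb, an activin subunit gene that faces Gli2 across that gap (102), followed by Gdf10 (97). Hgf, the hepatocyte growth factor gene, was nearest to 3 members, with scores of 29, 37 and 63.

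Glucocorticoid-induced genes bounded an occupied gap for 5 of 30 (16.7%), and 2 were nearest, Errfi1 and Klf9. Lpin1, a phosphatidate phosphatase gene, bounded a gap with a peak of score 101 at 493 kb, closer to the other flank, Trib2 (226 kb). Cebpb, Foxo1 and Klf9 are shared with the adipogenic list. The density of 1.85 per Mb rests on 6 members (0.679 to 4.03), against 0.503 at the same lengths, whose median score was 120, and without the gap of Errfi1 it was 1.27 from 4 members. Axon guidance genes bounded an occupied gap for 15 of 75 (20.0%) with 0.580 per Mb (0.359 to 0.886), an interval that includes the 0.380 of all gaps of the same lengths. Sema5a (238), Nrp1 (193), Epha6 (159) and Epha4 (154) bounded the gaps with the highest scores. The Sema5a peak lay 22.7 kb from that gene, but the Nrp1 and Epha4 peaks lay 643 kb and the Epha6 peak 2000 kb away. Pard3 was closer to the Nrp1 peak (103 kb) and Nsun3 to the Epha6 peak (121 kb). For the Epha4 peak the nearest gene in the file is Mir6343.

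Cadherins and neuronal adhesion molecules, many of which border the longest gene deserts, were counted often as flanks but had a low density. They bounded an occupied gap for 19 of 68 genes (27.9%), with 8 nearest, but their adjoining gaps had a median length of 814 kb and held 0.217 members per Mb (0.148 to 0.308), below the 0.352 of all gaps of the same length classes. That reference includes the gaps of the list itself. It applies a single rate to all gaps over 1000 kb, so longer gaps such as the 4542 kb between Pcdh20 and Pcdh9 are not matched in length. Ncam2 had the highest score (258, 76.5 kb past its end), followed by the gaps of Flrt2 (202), Tenm2 (127) and Cntnap4 (110). The Flrt2 and Tenm2 peaks lay 1182 and 3126 kb from those genes.

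Thermogenic and beige genes had 0 of 43 as nearest gene and 1 as a flank (2.33%), Zfp516 (78, at 521 kb). Their adjoining gaps held 1 member, 0.267 per Mb (0.00676 to 1.49) against 0.473 at the same lengths. The same-length rates give 1.77 members there, so the low counts do not show an absence. Members inside a coding gene body have no flank and enter neither the flank counts nor the densities, so the peak of score 94 inside Ppargc1a, a gene of this list, is not among them. Few members lay beside markers of the cell types that the stromal fraction can hold. Among progenitor and fibroblast (12 genes), macrophage (10), smooth muscle and pericyte (10) and mesothelial (8) markers none was nearest or a flank, and among 10 endothelial markers Cdh5 was a flank, 687 kb from a peak of score 58. These lists adjoin little long-gap sequence (0.894 Mb for the progenitor and 1.04 Mb for the macrophage markers). A count of 0 there allows up to 4.13 and 3.54 members per Mb by the exact interval. Smooth muscle and mesothelial markers adjoin only 0.0240 and 0.0910 Mb. The same-length rates give 0.0148 and 0.0560 members there, so a count of 0 says nothing. The 2 members beside the endothelial markers gave 1.10 per Mb (0.133 to 3.96) against 0.440 at the same lengths.

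**Figure D4:**
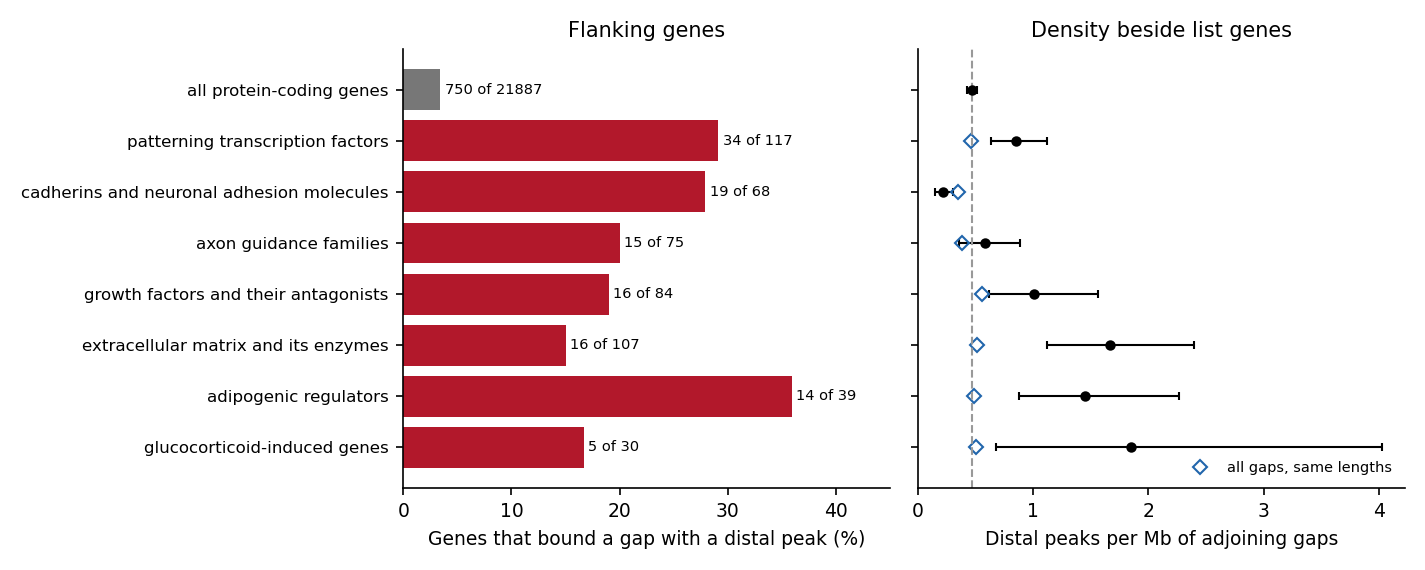
The left panel shows the share of genes of each list that bound a gap with a distal peak (percent, with counts beside the bars), and the right panel the distal peaks per Mb of the gaps beside them (points, with exact 95% Poisson intervals), with a dashed line at 0.466 for all gaps and open diamonds at the density of all gaps of the same lengths. Adhesion molecules have a share of 27.9% but a density of 0.217 against 0.352, and lists with fewer than 5 members beside them are not drawn.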

How the data were processed

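The authors deposited 1 annotated peak list of 1 ChIP library on mm10. Per the file headers, HOMER annotatePeaks.pl made the annotation. The submitters' processing notes name, with no roles, MACS2, deepTools 3.3.0, SAMtools, Picard and Bowtie2. The score is a deposited whole number per peak on an unstated scale. Read depth and the use of the input are not given in the sources used here. A score of this kind can rise with depth and width, so it served only to rank and describe peaks. Distances, classes and nearest genes are those of the file, and 1 line without a peak was dropped.

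Gene bodies and start sites came from RefSeq tables of GRCm38.p6 (21887 protein-coding genes). Start sites were given for 17492 of these genes. All 451 nearest genes matched by gene number. Distances recomputed from these start sites equalled the deposited ones within 2 bp for 2159 of 2417 peaks (89.3%). A gap is the sequence between merged coding gene bodies, a run is members at most 50 kb apart (midpoints), and densities use gap sequence over 50 kb from both flanks. The same-length reference of a list applies the density of all gaps in 4 classes of gap length (limits at 200, 500 and 1000 kb) to its gaps, and was added after the data were seen. Intervals are exact 95% (Clopper-Pearson, Poisson, order statistics for medians). No test was possible with 1 library. Functions were tested on simulated positions (Python 3.11.15, pandas 2.3.3, numpy 2.4.6, scipy 1.17.1).

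The members and the 13 lists were chosen with earlier results of these data known. Named by rule were the 10 highest scores, the 5 farthest members, the 5 runs, nearest genes and gaps with most members, the top 4 genes per list by score and 9 set genes. A gene that the rule names is not reported here. Others were named after their values were seen. Motifs, orientation and gap-length classes were also chosen after the data were seen.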

Additional observations from a re-analysis of the deposited data

How the results depend on the processing

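No paired analysis was possible because the series has 1 ChIP library, and for the same reason no replicate could be left out. The median score of 60 stayed between 59 and 62 under every alternative run, and its difference of -6 from nearer intergenic peaks between -7 and -2, always negative. The number of members fell from 584 to 373 with a limit of 100 kb and to 350 when all start sites of the promoter table were used, an alternative added after the data were seen. The share with a neighbouring member, 21.4% within 50 kb, was 14.7% within 25 kb, 30.5% within 100 kb, 30.1% with any peak as neighbour and 17.2% for scores of at least 30. The median gap of 549 kb became 140 kb between genes of any kind, and the share inside a gene body fell from 18.8% to 2.91% with coding genes only. The 316 nearest coding genes became 750 with flanks on both sides and 199 beyond 100 kb. With flanks on both sides the list counts were 34 for patterning factors, 19 for adhesion molecules, 15 for axon guidance, 16 each for growth factors and matrix, 14 for adipogenic regulators, 5 for glucocorticoid-induced genes and 1 each for thermogenic genes and endothelial markers. Beyond 100 kb, adipogenic regulators fell to 2 and glucocorticoid-induced genes to 0 nearest. The density over all gaps of 0.466 per Mb rose to 0.619 without gaps over 1000 kb and to 0.537 without X and Y (both added after the data were seen). In all, 23 of 78 alternative values moved beyond their interval or by over 1.5 times; each of these alternatives changes a definition or the set of peaks or gaps counted. Without read counts the precision of single scores is unknown.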
